A study of Homo sapiens with 6 samples.

Results

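The 28 genes described here encode ATP-binding cassette (ABC) proteins, the family that holds the main drug efflux pumps of human cells. They were taken by symbol from a list covering subfamilies ABCA to ABCG, and each of the 28 matched 1 of the 60604 genes in the count tables. Total RNA was sequenced from AGS, a line established from a human gastric adenocarcinoma, in 3 libraries of cells given 0.5 mM indomethacin for 24 h and 3 control libraries labelled 0 mM. Indomethacin is a non-steroidal anti-inflammatory drug that inhibits cyclooxygenases. The 1 growth protocol given is DMEM with fetal bovine serum, and the labels give neither a vehicle nor a time for the control cells. The labels do not tie replicates to separate cultures, and the p-values therefore reflect spread among libraries that may be technical.

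ABC proteins bind and hydrolyse ATP on cytosolic nucleotide-binding domains, and most use that energy to move a substrate across a membrane. Members of ABCB, ABCC and ABCG export drugs, conjugated toxins, bile salts and prostanoids, members of ABCA and ABCG move sterols and phospholipids, and those of ABCD act in peroxisomes and lysosomes. Proteins of ABCE and ABCF have no membrane domain and act on ribosomes and translation factors. ABCB1 (P-glycoprotein), ABCC1 (MRP1) and ABCG2 (BCRP) are the pumps best known for drug resistance in tumours, and ABCC4 (MRP4) is known to export prostaglandins.

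Total counts were 17535435 to 20094302 in the indomethacin libraries and 20983189 to 23221077 in the control libraries, and the 28 genes together held 13318 to 19470 and 16132 to 17861 of these counts. Levels are given as CPM, the count set against the library total after TMM scaling. A count of 0 allows a level of up to 0.149 to 0.171 CPM across the indomethacin libraries and 0.129 to 0.143 CPM across the control libraries, which is what 3 counts amount to before that scaling. Genes of the mitochondrial genome took 16.7% to 19.7% of the counts in indomethacin libraries and 22.8% to 26.8% in control libraries. The 10 epithelial markers fixed for the cell type summed to 3316 to 3788 CPM with indomethacin and 3552 to 4090 CPM in control, mostly from keratins, while single markers moved both ways. CEACAM6, CLDN4 and CDH1 rose 7.35-fold, 3.25-fold and 2.84-fold, and CDH17, EPCAM and KRT8 fell, with CDH17 2.60-fold lower. Markers of other cells were low except for 3 genes. The 6 fibroblast markers summed to 9.67 to 11.5 CPM with indomethacin and 6.52 to 8.62 CPM in control, nearly all of it from COL1A1 and PDGFRB. COL1A1 rose 2.03-fold, PDGFRB had 6 counts with indomethacin and 163 in control, and COL1A2 and DCN had no count in control. The 7 leukocyte markers summed to 118 to 125 CPM with indomethacin and 599 to 1367 CPM in control, nearly all of it from the lysozyme gene LYZ, while PTPRC, which defines leukocytes, had 5 counts with indomethacin and 15 in control. The 5 endothelial markers summed to under 1 CPM in each library. The part of these shifts in the results below was not tested. In RNA from bulk cells, fewer cells of a kind and less RNA per cell cannot be told apart.

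Of the 28 genes, 25 had enough counts to be tested, and the rest, ABCB1, ABCG1 and ABCG5, did not. Among the 25, 8 rose and 9 fell with indomethacin (quasi-likelihood test of edgeR, with Benjamini-Hochberg adjustment over all genes tested and a threshold of 0.05). Over all 17200 genes tested 61.6% passed, 30.6% higher and 31.0% lower, so the 68% of ABC genes that passed is close to that background. The median log2 fold change of the 25 genes was -0.07, and that of all genes was 0.04. Changes of at least 2-fold were called upward for ABCC3, ABCC2, ABCC5 and ABCA5 and downward for ABCG2 and ABCC4, against 17.4% of all genes upward and 15.6% downward. Indomethacin and control libraries did not overlap in 16 of the 25 genes, and in 67.0% of all genes tested.

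**Figure D1:**
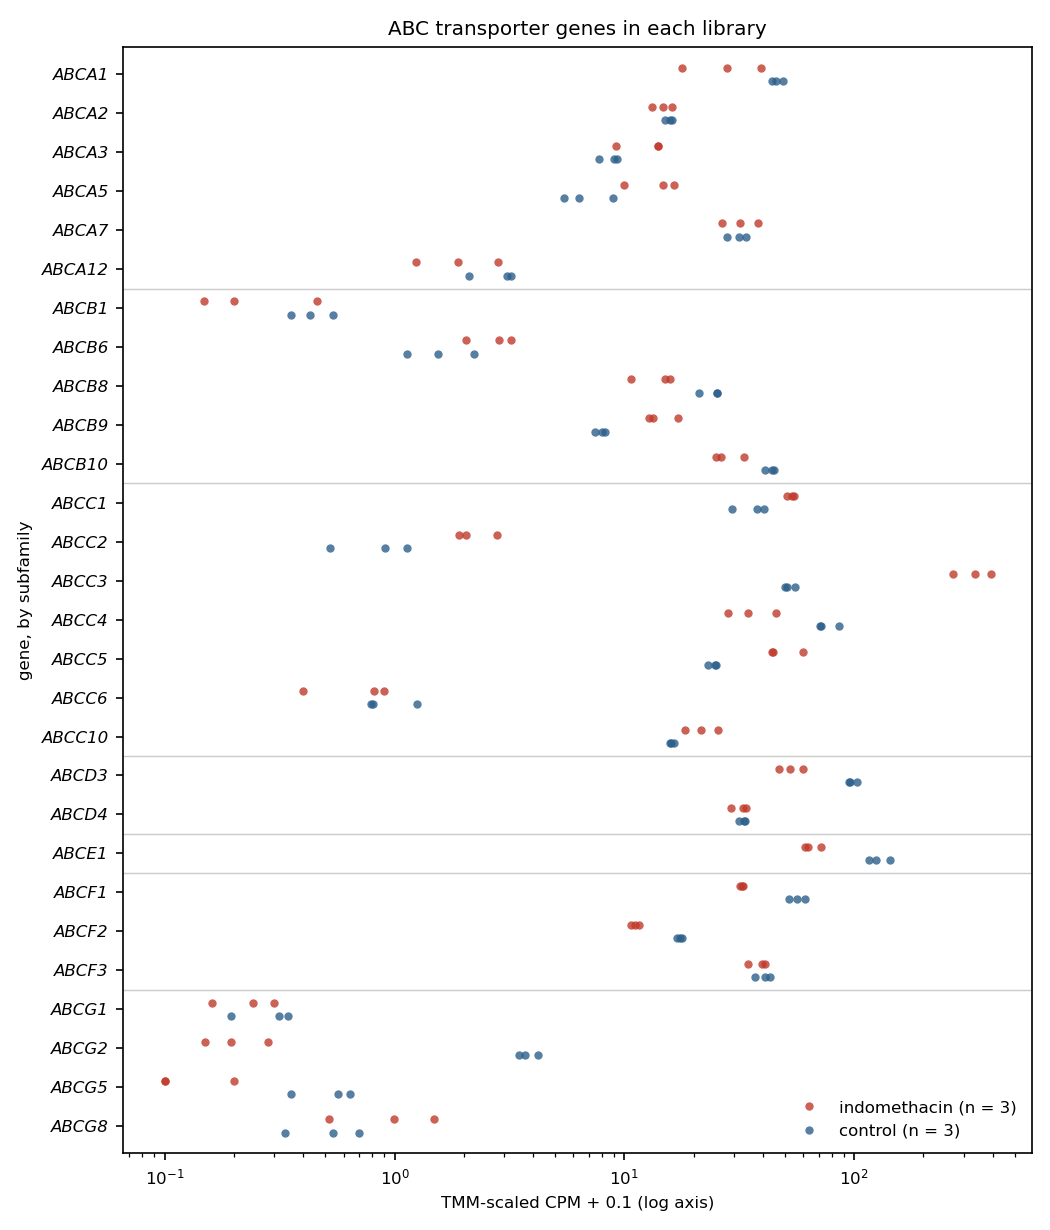
TMM-scaled CPM plus 0.1 on a log axis for the 28 ABC genes, grouped by subfamily, with 1 point per library and the indomethacin libraries above the control libraries in each row. ABCC3 lies between 269 and 393 CPM with indomethacin and between 50.1 and 55.1 CPM in control, and ABCG2 lies under 0.2 CPM with indomethacin.

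The ABCC subfamily, which exports organic anions and glutathione or glucuronide conjugates, held the largest rise among the 28 genes. ABCC3 (MRP3; chromosome 17, 50634777 to 50692253, plus strand, hg38), a pump of bile salts and glucuronides that sits in the basolateral membrane of epithelia, stood at 336, 393 and 269 CPM in the indomethacin libraries, against 50.1, 55.1 and 51.0 CPM in the control libraries. The lowest indomethacin library was far above the highest control library. The log2 fold change was 2.68 (SE 0.14), a 6.39-fold rise (edgeR adjusted p = 2.2e-09). Of all counts on the 28 ABC genes, ABCC3 took 33.7% to 41.6% with indomethacin and 6.33% to 7.23% in control. Summed over the 7 ABCC genes among the 28, the level was 432 to 550 CPM with indomethacin and 200.1 to 209 CPM in control. With the 5 other human ABCC genes added, nearly all of it CFTR, which fell, the sum over 12 genes was 451 to 559 CPM with indomethacin and 403 to 521 CPM in control, and the groups overlapped.

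ABCC2 (MRP2; chromosome 10, 99782640 to 99852594), the apical pump for the same kinds of conjugates, was far scarcer. It stood at 1.81, 1.94 and 2.70 CPM with indomethacin, against 1.03, 0.81 and 0.422 CPM in control, and the groups did not overlap. The log2 fold change was 1.50 (SE 0.37; edgeR adjusted p = 0.0028), on 38 to 45 counts per indomethacin library and 9 to 21 per control library. ABCC2 entered the test through its indomethacin counts, since control replicate 3, with 9 counts, was too low for the filter. ABCC5 (MRP5; chromosome 3, 183919934 to 184017939, minus strand), an exporter of cyclic nucleotides and nucleotide analogues, had 44.4, 44.0 and 59.6 CPM with indomethacin, against 25.0, 24.7 and 23.1 CPM in control. Each indomethacin library was higher than each control library, and the log2 fold change was 1.02 (SE 0.13; edgeR adjusted p = 1.3e-05). ABCC1 (chromosome 16, 15949138 to 16143257), the pump of glutathione conjugates and leukotrienes, rose less. It had 54.5, 50.9 and 53.5 CPM with indomethacin, against 29.3, 40.3 and 37.5 CPM in control, again without overlap (log2 fold change 0.57, SE 0.12, edgeR adjusted p = 0.0012). ABCC10 (MRP7), which exports taxanes, averaged 21.7 ± 3.66 CPM with indomethacin and 16.0 ± 0.338 CPM in control (SD, n = 3 each; log2 fold change 0.44, edgeR adjusted p = 0.013). That call was lost in 4 of the 6 fits that left out a library. These were the fits without control replicate 1, 2 or 3 or indomethacin replicate 2 (edgeR adjusted p = 0.060, 0.053, 0.064 and 0.084). With no filter on low counts edgeR gave an adjusted p of 0.073 for ABCC10, which is not comparable with that of the filtered fit.

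ABCC4 moved the other way. This pump of cyclic nucleotides and prostaglandins (chromosome 13, 95019835 to 95301475, minus strand) stood at 45.5, 34.3 and 28.2 CPM with indomethacin, against 86.1, 70.9 and 71.6 CPM in control. Each indomethacin library was lower than each control library, and the log2 fold change was -1.08 (SE 0.15; edgeR adjusted p = 3.6e-05). Per kb of exon, ABCC3 was at 8.29 times the level of ABCC4 with indomethacin and at 0.613 times in control. ABCC6, a pump of liver and kidney that shares sequence with pseudogenes, had under 1.2 CPM in each library and did not pass (0.603 ± 0.265 CPM with indomethacin and 0.847 ± 0.264 CPM in control; edgeR adjusted p = 0.36). It lies 6.31 kb from ABCC1 on the opposite strand.

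**Figure D2:**
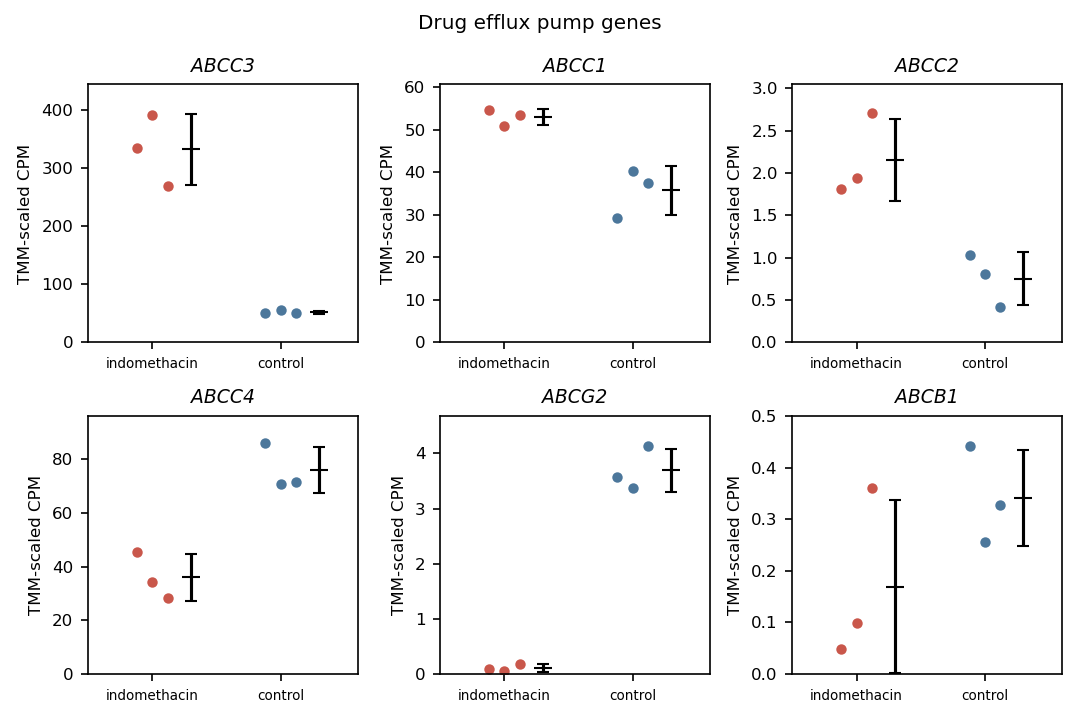
TMM-scaled CPM of 6 drug efflux pump genes, with 1 point per library (replicates 1 to 3 from left to right), indomethacin left of control, and the mean with its SD (n = 3) as a black bar beside the points. The groups do not overlap for ABCC3, ABCC1, ABCC2, ABCC4 and ABCG2, while those of ABCB1 do, on 1 to 9 counts per library.

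The ABCG subfamily, which exports drugs and sterols, held the largest fall among the 28 genes. ABCG2 (chromosome 4, 88090150 to 88231628, minus strand), the breast cancer resistance protein and an exporter of urate, porphyrins and many drugs, had 2, 1 and 3 counts in the indomethacin libraries, against 73, 79 and 88 counts in the control libraries. These are 0.0951, 0.0497 and 0.18 CPM with indomethacin and 3.58, 3.37 and 4.13 CPM in control. No indomethacin library was above 3 counts, the floor used here. The log2 fold change was -5.07 (SE 0.42; edgeR adjusted p = 2.0e-07). ABCG2 entered the test through its control counts alone, since its indomethacin counts were too low for the filter. From 6 counts summed over the indomethacin libraries and 240 over the control libraries, the level was 34.4 times higher in control, with a 95% exact interval of 15.6 to 94.8 that covers counting error only.

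ABCG5 and ABCG8 encode the partners of the sterol exporter sterolin and stand head to head on chromosome 2, with start sites 132 bases apart and 231 bases shared by the promoter windows of both. Both were near the limit of detection. ABCG5 had 0, 2 and 0 counts with indomethacin, against 11, 6 and 10 in control, a ratio of 11.6, control over indomethacin (95% exact counting interval 2.92 to 101). It had too few counts for the test as filtered, and with no filter its log2 fold change was -3.49 (edgeR adjusted p = 0.0015). Adjusted p-values of that fit are not comparable with those of the filtered one. For ABCG2 edgeR gave 2.1e-27 with no filter and 2.0e-07 as filtered, and for ABCA3 0.051 and 0.021. ABCG5 is therefore not counted as called. ABCG8 had 29, 18 and 7 counts with indomethacin, against 9, 14 and 5 in control. Its groups overlapped and it did not pass (log2 fold change 1.09, SE 0.49, edgeR adjusted p = 0.07). With upper-quartile factors its adjusted p was 0.049. Leaving out 1 library gave log2 fold changes between 0.62 without indomethacin replicate 1 (adjusted p = 0.36) and 1.39 without indomethacin replicate 3 (adjusted p = 0.024), so the value rests on single libraries. The exons of both genes share 137 bases on opposite strands, and whether the counting used strand is not given in the sources used here, so these counts are uncertain. ABCG1, an exporter of cholesterol to lipoproteins in macrophages, had 8 counts over the indomethacin libraries and 12 over the control libraries, too few to test.

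The window around the start sites of the sterolin pair and a window of ABCG2 are shown because the ratios between groups were largest for these genes within the subfamily. Of these genes only ABCG2 was called. Sequences are those of RefSeq on GRCh38.p14, 250 bases before to 50 bases after a start site, read along the strand of the gene. RefSeq windows were listed for 25 of the 28 genes, 36 windows in all. Capitals mark the antioxidant response element TGACNNNGC, the core of the xenobiotic response element GCGTG, the E-box CACGTG, the GC box GGGCGG and the CCAAT box CCAAT, on either strand. The first of these has free letters and can overlap the others. The ABCG8 window, chr2:43838721-43839020 on the plus strand, held none of the 5 motifs, and neither did the ABCG5 window on the other strand.
ABCG8: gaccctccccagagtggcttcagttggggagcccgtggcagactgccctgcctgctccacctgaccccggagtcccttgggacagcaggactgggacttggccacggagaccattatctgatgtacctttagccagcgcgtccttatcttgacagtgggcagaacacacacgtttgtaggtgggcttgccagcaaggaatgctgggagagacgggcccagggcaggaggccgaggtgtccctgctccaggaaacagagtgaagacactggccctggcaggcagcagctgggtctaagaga
The ABCG2 window at chr4:88158810-88159109 on the minus strand, 1 of 5 listed for the gene, held an E-box, 2 GC boxes and 2 xenobiotic response cores.
ABCG2: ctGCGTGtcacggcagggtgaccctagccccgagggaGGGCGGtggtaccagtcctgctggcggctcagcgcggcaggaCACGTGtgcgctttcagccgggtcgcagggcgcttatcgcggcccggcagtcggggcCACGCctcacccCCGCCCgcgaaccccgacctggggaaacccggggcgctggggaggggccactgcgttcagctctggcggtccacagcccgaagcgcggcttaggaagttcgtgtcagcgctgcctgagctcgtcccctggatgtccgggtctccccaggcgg

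**Figure D3:**
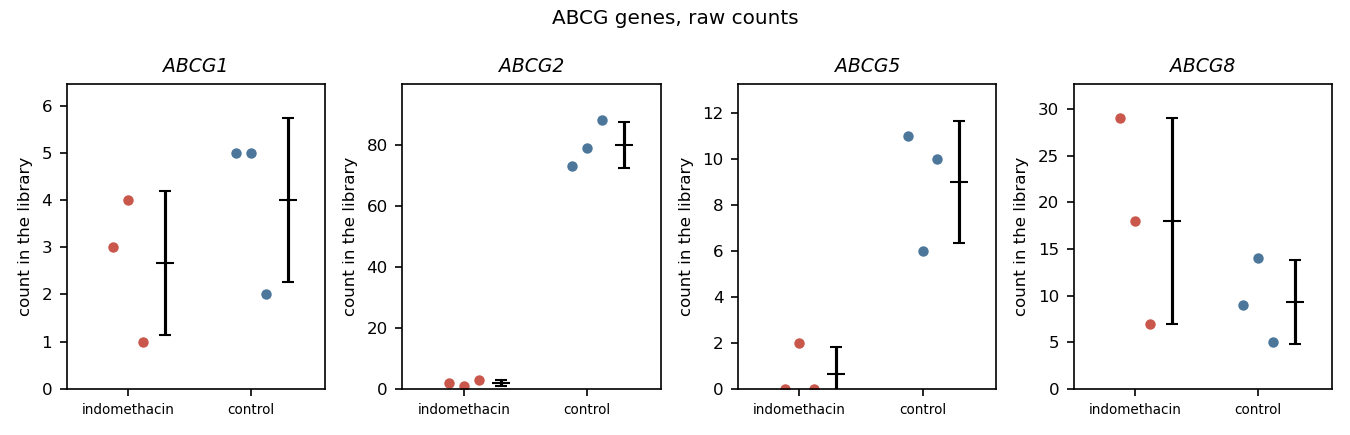
Raw counts of the 4 ABCG genes in each library (replicates 1 to 3 from left to right), indomethacin left of control, with the mean and SD (n = 3) in black. ABCG2 has 1 to 3 counts per indomethacin library and 73 to 88 per control library, and ABCG5 has 0 to 2 and 6 to 11.

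Windows of ABCC5, which rose, and ABCC4, which fell, are shown to set a risen and a fallen member of 1 subfamily side by side. The ABCC5 window, chr3:184017835-184018134 on the minus strand, held a GC box and a xenobiotic response core, and the ABCC4 window, chr13:95301402-95301701 on the minus strand, held an antioxidant response element and 3 xenobiotic response cores.
ABCC5: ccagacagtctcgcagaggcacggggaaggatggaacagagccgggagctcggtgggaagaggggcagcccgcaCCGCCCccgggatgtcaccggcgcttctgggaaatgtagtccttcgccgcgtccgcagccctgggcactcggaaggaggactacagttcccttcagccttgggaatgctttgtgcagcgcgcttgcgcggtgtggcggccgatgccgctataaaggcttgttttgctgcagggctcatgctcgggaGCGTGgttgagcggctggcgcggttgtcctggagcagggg
ABCC4: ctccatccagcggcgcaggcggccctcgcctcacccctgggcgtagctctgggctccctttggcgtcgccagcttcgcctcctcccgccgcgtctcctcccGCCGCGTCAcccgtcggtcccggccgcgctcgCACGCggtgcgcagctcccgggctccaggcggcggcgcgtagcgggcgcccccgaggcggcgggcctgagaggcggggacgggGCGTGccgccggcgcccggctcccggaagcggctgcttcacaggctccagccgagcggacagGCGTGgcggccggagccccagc
Among the 36 windows of ABC genes, 10 (27.8%) held the antioxidant response element, against 13.3% of all 35116 windows listed, and 21 (58.3%) held the xenobiotic response core, against 36.5%. The GC box was in 20 (55.6%) against 45.0%, the E-box in 8 (22.2%) against 7.26%, and the CCAAT box in 7 (19.4%) against 34.6%. The antioxidant response element was found in 4 of the 6 risen genes with a window (ABCA3, ABCA5, ABCB9 and ABCC10). The risen genes ABCC3 and ABCC1 had no window listed. The element was in 3 of the 9 fallen genes (ABCC4, ABCF1 and ABCG2) and in 3 of the 8 that did not pass (ABCA2, ABCB6 and ABCD4). Counted by window, it was in 4 of 9, 3 of 13 and 3 of 11, and genes with more windows have more room for a match. These matches describe letters only, and windows of 1 gene can overlap.

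The ABCB subfamily held changes in both directions at membranes of organelles. ABCB1 (chromosome 7, 87503017 to 87713323), the efflux pump P-glycoprotein, was barely detected. It had 1, 2 and 6 counts with indomethacin, against 9, 6 and 7 in control, with overlap between the groups and too few counts for the test. The summed counts of 9 and 22 give a ratio of 0.475, indomethacin over control, with a 95% exact counting interval of 0.193 to 1.07. ABCB8 and ABCB10, both of the inner mitochondrial membrane, fell. ABCB8, part of a potassium channel complex there, averaged 13.7 ± 2.74 CPM with indomethacin and 23.8 ± 2.46 CPM in control (log2 fold change -0.79, SE 0.16). ABCB10, which takes part in heme synthesis, averaged 28.1 ± 4.36 CPM with indomethacin and 43.0 ± 2.07 CPM in control (-0.61, SE 0.12; edgeR adjusted p = 0.00057 for ABCB8 and 0.00071 for ABCB10). ABCB9, a peptide transporter of lysosomes, rose to 14.3 ± 2.31 CPM with indomethacin, against 7.78 ± 0.422 CPM in control, without overlap (log2 fold change 0.88, SE 0.16, edgeR adjusted p = 0.00024). Its exons share 1656 of 13291 bases with OGFOD2, 1590 with ARL6IP4 and 2752 with an unnamed gene, all on the other strand. These genes had 111, 21 and 5 counts with indomethacin and 64, 19 and 5 in control. The value of ABCB9 is uncertain to that extent.

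ABCB6, a porphyrin transporter, had 1.95, 2.73 and 3.12 CPM with indomethacin, against 1.03, 1.45 and 2.11 CPM in control. The groups overlapped and the test was just missed (log2 fold change 0.75, SE 0.32, edgeR adjusted p = 0.055). It passed with upper-quartile factors (adjusted p = 0.028), a filter of 1 CPM (0.041), or with control replicate 3 (0.025) or indomethacin replicate 1 (0.034) left out. An unnamed gene on the same strand shares 2841 of its 5205 exonic bases.

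In the ABCA subfamily, large transporters of lipids, 2 genes rose, 1 fell and 3 did not pass. ABCA1 (chromosome 9, 104781006 to 104928155), which loads cholesterol onto apolipoprotein A-I, had 39.4, 27.8 and 17.8 CPM with indomethacin, against 45.7, 49.1 and 44.0 CPM in control. The indomethacin libraries were spread widely and all lay lower than control (log2 fold change -0.70, SE 0.20, edgeR adjusted p = 0.0082). ABCA5 (chromosome 17, 69244311 to 69327244, minus strand), a sterol transporter of lysosomes and late endosomes, had 16.3, 14.7 and 9.91 CPM with indomethacin, against 6.23, 8.79 and 5.35 CPM in control, without overlap (log2 fold change 1.01, SE 0.22, edgeR adjusted p = 0.0011). ABCA3, the surfactant lipid transporter of lung alveolar cells, averaged 12.3 ± 2.77 CPM with indomethacin and 8.59 ± 0.823 CPM in control, and 1 indomethacin library lay within the control range (log2 fold change 0.53, edgeR adjusted p = 0.021). Its pseudogene ABCA3P1 had 1 count with indomethacin and 40 in control. The ABCA3 call was lost without control replicate 1 or 2 or indomethacin replicate 1 or 2 (edgeR adjusted p = 0.11, 0.062, 0.089 and 0.094). With no filter edgeR gave an adjusted p of 0.051 for ABCA3, which is not comparable with that of the filtered fit. ABCA2, ABCA7 and the keratinocyte lipid transporter ABCA12 had log2 fold changes of -0.09, 0.05 and -0.51 (edgeR adjusted p = 0.55, 0.77 and 0.19), with overlapping groups.

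ABCA5 stands at one end of a row of ABCA genes on the minus strand of chromosome 17, and the others are not among the 28. In order of position these are ABCA8, ABCA9, ABCA6, ABCA10 and ABCA5, with gaps of 19.1, 17.8 and 5.32 kb between the first 4 and an overlap of the last pair. ABCA10 had 5.28, 5.07 and 6.55 CPM with indomethacin, against 0.834, 1.54 and 0.657 CPM in control (log2 fold change 2.46, SE 0.30, edgeR adjusted p = 8.9e-06). ABCA6 had 83 counts over the indomethacin libraries and 5 over the control libraries (log2 fold change 4.10, SE 0.54, edgeR adjusted p = 1.8e-05). It entered the test through its indomethacin counts alone. ABCA9 had 43 and 6 counts, too few to be tested, and ABCA8 had 9 and 13. In ABCA9, ABCA6, ABCA10 and ABCA5 each indomethacin library lay higher than each control library, and in ABCA8 the groups overlapped. Groups did not overlap, in either direction, in 67.0% of all genes tested. ABCA5 and ABCA10 share 318 exonic bases on the same strand. ABCA8 and ABCA9 are named for their position, a choice made with their values in view. The ABCA5 window, chr17:69327084-69327383 on the minus strand, is shown as the start of this row and held an antioxidant response element, a GC box and a xenobiotic response core.
ABCA5: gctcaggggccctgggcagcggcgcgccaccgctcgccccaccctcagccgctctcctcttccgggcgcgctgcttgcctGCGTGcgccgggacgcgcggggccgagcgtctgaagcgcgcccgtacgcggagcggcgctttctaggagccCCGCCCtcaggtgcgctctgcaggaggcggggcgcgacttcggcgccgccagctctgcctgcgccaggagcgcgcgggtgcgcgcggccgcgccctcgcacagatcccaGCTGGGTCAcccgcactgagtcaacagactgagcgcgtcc

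**Figure D4:**
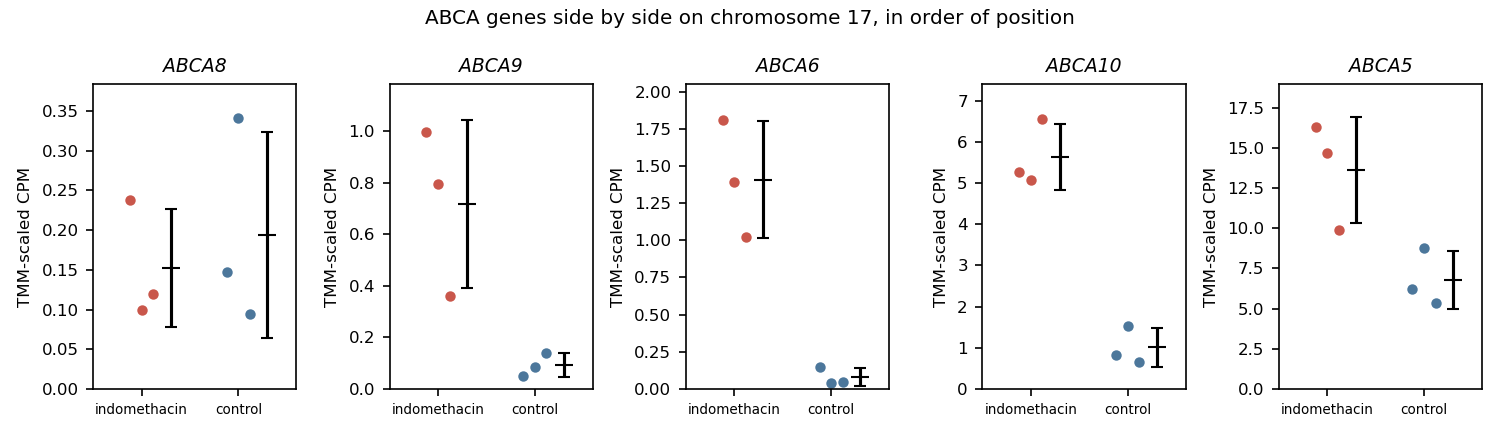
TMM-scaled CPM of 5 ABCA genes in their order along chromosome 17, with 1 point per library (replicates 1 to 3 from left to right), indomethacin left of control, and the mean with its SD (n = 3) in black. The groups overlap in ABCA8 and not in ABCA9, ABCA6, ABCA10 or ABCA5, against 67.0% of all genes tested without overlap. Each panel has its own scale.

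The ABCD, ABCE and ABCF genes either fell or did not pass. ABCD3 (PMP70; chromosome 1, 94418389 to 94518666), which takes branched-chain acyl-CoA and bile acid precursors into peroxisomes, had 59.5, 46.9 and 52.6 CPM with indomethacin, against 95.8, 94.8 and 103 CPM in control, without overlap (log2 fold change -0.89, SE 0.11, edgeR adjusted p = 1.1e-05). ABCD4, which acts with LMBRD1 in the release of cobalamin from lysosomes, averaged 31.9 ± 2.63 CPM with indomethacin and 32.6 ± 0.98 CPM in control (edgeR adjusted p = 0.82), and shares 624 of 8922 exonic bases with an unnamed gene on the same strand. ABCE1 (chromosome 4, 145098288 to 145129524), the factor that splits ribosomes after termination, had 71.4, 60.8 and 62.7 CPM with indomethacin, against 143, 116 and 125 CPM in control. Its groups did not overlap, and the log2 fold change was -0.98 (SE 0.11; edgeR adjusted p = 5.1e-06). Its exons share 276 of 6254 bases with OTUD4 on the other strand.

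Of the ABCF genes, ABCF1, which binds the initiation factor eIF2 and ribosomes, averaged 32.3 ± 0.547 CPM with indomethacin and 56.2 ± 4.54 CPM in control (log2 fold change -0.80, SE 0.11, edgeR adjusted p = 1.8e-05). ABCF2 averaged 11.1 ± 0.407 CPM with indomethacin and 17.3 ± 0.443 CPM in control (-0.65, SE 0.13, edgeR adjusted p = 0.00052). ABCF3, known from yeast relatives as a partner of the kinase activator GCN1, averaged 38.2 ± 3.46 CPM with indomethacin and 40.2 ± 3.03 CPM in control and did not pass (-0.07, edgeR adjusted p = 0.60). ABCF3 and ABCC5 lie 168 kb apart on chromosome 3, and ABCC5 rose. ABCB8 and ABCF2 lie 164 kb apart on chromosome 7, and both fell.

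**Figure D5:**
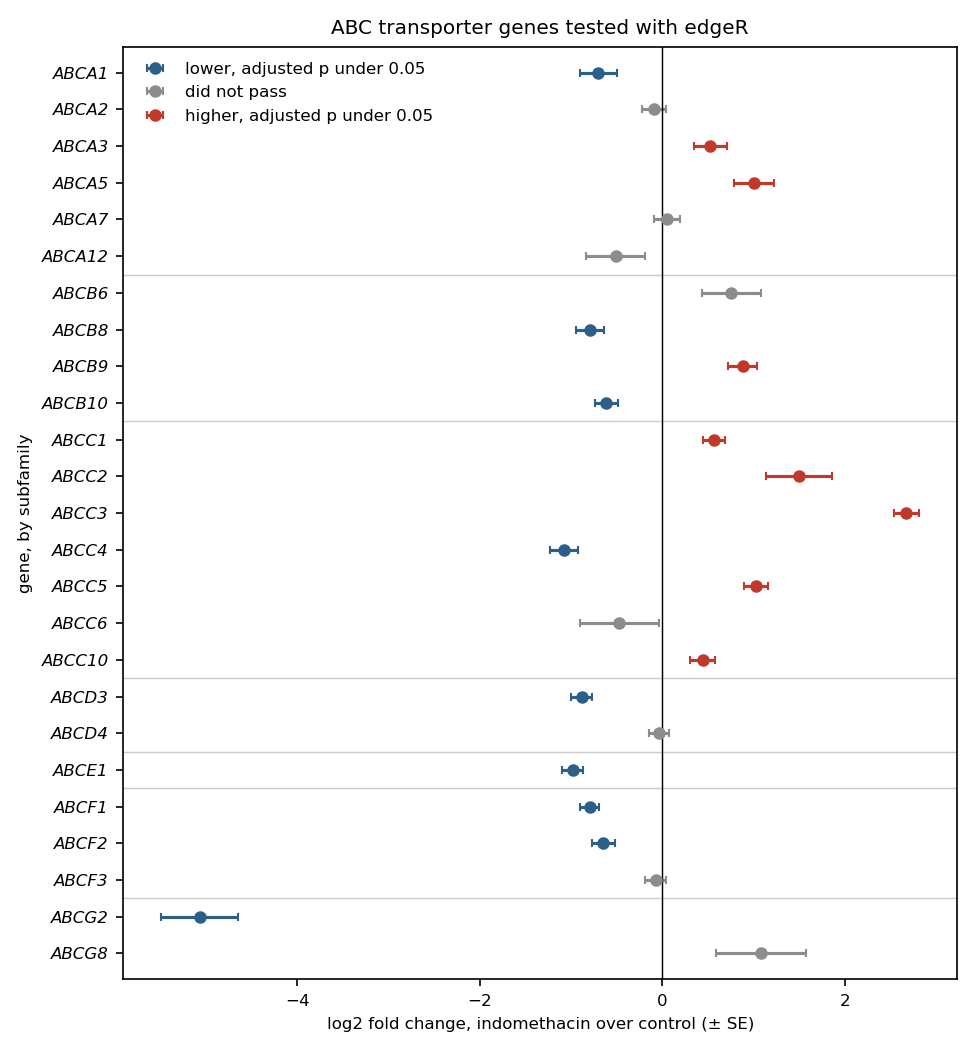
Log2 fold changes, indomethacin over control, with their SE for the 25 ABC genes tested by edgeR, grouped by subfamily and coloured by the call. ABCC3 stands at 2.68 and ABCG2 at -5.07, and the others lie between -1.08 and 1.50.

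Per kb of exon, which allows levels to be compared between genes, ABCC3 was the most abundant of the 28 with indomethacin, at 34.6 ± 6.42 CPM per kb, and ranked 7 in control at 5.42 ± 0.277 CPM per kb. ABCE1 was next with indomethacin at 10.4 ± 0.906 CPM per kb and stood first in control at 20.5 ± 2.22 CPM per kb. With indomethacin, ABCF3, ABCF1, ABCD3 and ABCB10 followed at 7.34 ± 0.664, 7.19 ± 0.122, 6.93 ± 0.826 and 6.58 ± 1.02 CPM per kb, and their order does not go beyond their spread. In control ABCE1 was followed by ABCD3, ABCF1, ABCB10 and ABCC4 at 12.8 ± 0.597, 12.5 ± 1.01, 10.1 ± 0.485 and 8.83 ± 0.996 CPM per kb. Of these neighbours, ABCD3 and ABCF1 did not differ beyond their spread, nor did ABCB10 and ABCC4. ABCB1, ABCC6, ABCG1, ABCG5 and ABCG8 were scarce in both groups, with 0.00891 to 0.0882 CPM per kb with indomethacin and 0.0301 to 0.123 CPM per kb in control. ABCG2 was at 0.0193 ± 0.0118 CPM per kb with indomethacin and at 0.659 ± 0.0699 CPM per kb in control (all SD, n = 3). The length is that of all annotated exons, so a gene read from a short isoform has its level understated.

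The other 20 human ABC genes were mostly scarce, and 9 were tested. ABCA6 and ABCA10 rose, and 5 fell. The chloride channel gene CFTR averaged 11.9 ± 5.29 CPM with indomethacin and 264 ± 61.6 CPM in control (log2 fold change -4.48, SE 0.26, edgeR adjusted p = 6.5e-09). ABCB4, the phospholipid exporter of bile canaliculi, had 10 counts over the indomethacin libraries and 57 over the control libraries (-2.29, SE 0.55, edgeR adjusted p = 0.0026). ABCB4 entered the test through its control counts alone. It is the neighbour of ABCB1, at a distance of 22.6 kb.

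Genes that act with these transporters were counted by list. Of 15 tested genes of liver X receptor signalling and cholesterol handling, 6 rose and 5 fell (median log2 fold change 0.26). NR1H2, which encodes liver X receptor beta, rose by 1.40, while SCARB1, the HDL receptor, was at -1.75 and NPC2, a lysosomal cholesterol carrier, at -0.58. NR1H2 shares 1182 of 5341 exonic bases with NAPSA on the other strand. Of 14 tested regulators of efflux genes, 7 rose and 3 fell (median 0.37). The 4 with the smallest adjusted p all rose, with log2 fold changes of 1.82 for FOXO3, 1.79 for the fatty acid receptor PPARA, 1.44 for the glucocorticoid receptor NR3C1 and 1.75 for the vitamin D receptor VDR.

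Of 18 tested genes of glutathione and glucuronide conjugation, which supply substrates of the ABCC pumps, 14 fell and 3 rose (median -0.97). The transferases GSTA4 and UGT1A6 had log2 fold changes of -2.39 and -2.48, while both subunits of the rate-limiting enzyme of glutathione synthesis rose, GCLC to 518 ± 118 CPM with indomethacin, against 44.8 ± 1.03 CPM in control, and GCLM to 150 ± 34.5 CPM, against 22.8 ± 1.67 CPM. UGT1A6 shares exons with the other UGT1A genes, so its value is uncertain. Of 22 tested carriers of uptake and efflux outside the ABC family and their anchors, 9 rose and 10 fell (median 0.22). The nucleoside transporter SLC29A1, the prostaglandin transporter SLCO2A1 and the organic anion carrier SLCO2B1 fell by 3.92, 3.94 and 3.37 on the log2 scale, and SLCO1B3, another organic anion carrier, rose by 1.83. SLCO1B3 shares 1930 of 3542 exonic bases with a read-through gene.

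Of 17 tested partners in ribosome recycling and eIF2 function, 3 rose and 5 fell (median -0.05). PELO, which works with ABCE1 on stalled ribosomes, rose by 1.09 and the ubiquitin ligase LTN1 by 0.77, while the eIF2B subunits EIF2B3 and EIF2B5 had log2 fold changes of -1.24 and -0.76. PELO lies inside ITGA1 and shares 499 of 4371 exonic bases with it. Of 18 tested peroxisome and cobalamin genes, 3 rose and 10 fell (median -0.35). PEX3, which takes part in bringing proteins to the peroxisomal membrane, had a log2 fold change of -1.25, AMACR of -2.32 and MMAB of -2.22. AMACR shares 2660 of 4847 exonic bases with a read-through gene. It entered the test through its control counts, since indomethacin replicate 3, with 8 counts, was too low for the filter. Of 14 tested heme genes, 3 rose and 7 fell (median -0.30). The heme oxygenase HMOX1 rose by 3.30 and the first enzyme of heme synthesis, ALAS1, by 0.96, while UROS and UROD had log2 fold changes of -1.38 and -1.29. These calls are edgeR's, and the share passed in these lists, between 47.1% and 94.4%, is to be read against the 61.6% of all genes.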

How the data were processed

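The authors deposited raw counts per Ensembl gene, 1 library to a table, with exon coordinates and length, per the file headers. HISAT2 2.1.0, featureCounts, cutadapt 1.16, FastQC 0.11.7 and DESeq2 are named with build hg38, per the submitters' processing notes. The strand setting, the treatment of multi-mapped reads and the release of the annotation are not given in the sources used here. These settings bear on overlapping genes and on near-identical copies. The libraries were made with a stranded kit after ribosomal RNA depletion, per the labels' protocols.

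Of 60607 lines per library, 3 were left out as pieces of 1 broken gene record. No 2 libraries of a group looked like copies, since chi-square divided by its degrees of freedom was 7.91 to 25.9 between them. Totals were 17535435 to 23221077 counts. Counts were filtered with filterByExpr, scaled by TMM and tested with edgeR 4.0.16 in R 4.3.3 (glmQLFit and glmQLFTest, group as the only term, Benjamini-Hochberg over 17200 genes, threshold 0.05). The SE is the one the test statistic implies. DESeq2 1.42.0, RLE and upper-quartile factors, other filters, a fit without mitochondrially encoded genes, a replicate block and leaving out each library were alternatives. The scripts were tested on simulated data. Intervals and floors cover counting error only.

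Every ABC gene is accounted for. Values by library are given for members that passed with a change of at least 2-fold and a mean of 1 CPM, for 6 drug efflux pumps, and for others where they help to show a result. In each other list the 4 genes with the smallest adjusted p are named, apart from some that are not reported here. The genes and lists were chosen with earlier results of these data known.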

Additional observations from a re-analysis of the deposited data

How the results depend on the processing

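The counts of ABC genes called higher (8) and lower (9) ranged over 6 to 10 and 9 to 10 across the 13 alternatives, and those over the other lists (36 and 59) over 33 to 44 and 54 to 61. Of the 25 tested genes, 16 kept their direction and their side of the threshold in each alternative that gave a value, among them ABCC3 (log2 fold change 2.54 to 2.80) and ABCG2 (-5.56 to -4.73). Signs turned only in 4 genes that did not pass in any fit. With upper-quartile factors ABCA2 stood at 0.024, ABCD4 at 0.085 and ABCF3 at 0.044. ABCA7 stood at -0.055 with no filter, and ABCD4 at 0.015 with a filter of 1 CPM. Among the fits that left out a library ABCA7 reached -0.10 without indomethacin replicate 2 and was -0.06 without control replicate 3, and ABCD4 was 0.012 without indomethacin replicate 1. Upper-quartile factors moved the median log2 fold change of all genes to 0.16, against 0.04 with TMM. With no filter the median was 0.20, over 39859 genes fitted. In that fit ABCC10 stood at 0.34 and ABCA3 at 0.42, against 0.44 and 0.53 as filtered. The cause of these shifts was not tested. ABCA12 passed only without indomethacin replicate 1 (-0.89, edgeR adjusted p = 0.037). Some alternatives put ABCA5 (log2 fold change 0.83 to 1.20), ABCC5 (0.86 to 1.14) and ABCC4 (-1.305 to -0.94) under 2-fold. Others put genes past that line that were not called at 2-fold above, such as ABCE1 (-1.09 to -0.86). Whether libraries with the same replicate number were paired is not given in the labels. Same-numbered deviations correlated at 0.02, 0.01 and 0.13. Indomethacin replicates 2 and 3 correlated best with their own number, and indomethacin replicate 1 with control replicate 2 (0.13). With 3 libraries per group these values cannot decide whether there was pairing. With the replicate block 9 ABC genes were higher and 9 lower, ABCB6 among the higher (adjusted p = 0.029). Depth limits ABCB1, ABCC6, ABCG1, ABCG5 and ABCG8, whose levels rest on 0 to 29 counts per library. It also limits the fold changes of ABCG2, with 1 to 3 counts per indomethacin library, and ABCC2, with 9 to 21 per control library.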
